A study of Homo sapiens with 8 samples.

Results

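NF-κB is a family of dimeric transcription factors built from the subunits RELA, REL, RELB, NFKB1 and NFKB2, and held in check by the inhibitors NFKBIA, NFKBIB, NFKBIE and TNFAIP3. NFKBIZ, whose product works as a cofactor at a subset of NF-κB target genes, is counted with the inhibitors here. Every probe set of the array whose only platform gene symbol was one of these 10 genes was taken, which gave 22 of 54675 probe sets, 10 for the inhibitors and 12 for the subunits. They were followed in CCRF-CEM-C7-14, a clonal, glucocorticoid-responsive line of human T-cell acute lymphoblastic leukaemia. Cells were kept in medium with charcoal-stripped serum and measured untreated at 0 h (3 arrays), after 2 h in 1 µM dexamethasone (3 arrays) and after 10 h in 1 µM dexamethasone (2 arrays). Dexamethasone is a synthetic glucocorticoid that activates the glucocorticoid receptor. All values of 2 h and 10 h are set against untreated cells, since no array of vehicle-treated cells at those times was used here. Time in stripped medium and hormone therefore cannot be told apart. The labels call the arrays biological replicates without giving the origin of each culture. The p-values therefore cover the spread seen among these arrays, which may be partly technical. With 2 to 3 arrays per time, their number limits the precision of every value.

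In resting T cells NF-κB dimers are retained in the cytoplasm by IκB proteins, which mask their nuclear localization signal. Stimulation through the T-cell receptor or TNF-family receptors activates the IκB kinase complex, IκB is phosphorylated and degraded, and the dimers enter the nucleus. Among the genes they switch on is NFKBIA itself, which closes a negative feedback loop, and glucocorticoids are known to raise NFKBIA transcription in lymphocytes. What was measured here is mRNA; protein and nuclear translocation were not measured.

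The values are log2 expression, where a difference of 1 is a 2-fold difference, and ran from 1.35 to 13.9. Array medians lay between 4.68 and 5.01. The 3 arrays with the lowest medians were 0 h replicate 2, 2 h replicate 3 and 10 h replicate 1, 1 from each time, and they stood apart from the other 5 on the first principal component, which held 36.9% of the variance between arrays. Non-human Bacillus control probe sets reached 4.73 at most, and a probe set whose mean over the 8 arrays did not exceed 4.73 is described as at the level of negative controls. Where a gene has several probe sets they are lettered from a, the brightest on average, and levels of different probe sets are not compared. T-cell markers averaged 9.59 to 9.60 on the 10 h arrays and 9.37 to 9.66 on the 0 h arrays, with 7 of 8 above the negative controls and CD2, at a mean of 4.72, at their level. Of markers of other cells, 3 of 4 measured for B cells, 2 of 5 for myeloid, 2 of 4 for natural killer, 1 of 3 for erythroid and 4 of 6 for epithelial and stromal cells exceeded the negative controls, CD79A at 8.78 and EPCAM at 8.56 being the brightest. The B-cell list, which stood highest among the blood lists other than T, averaged 5.81 to 5.82 on the 10 h arrays, 5.51 to 5.89 on the 2 h arrays and 5.44 to 5.86 on the 0 h arrays, and no marker of any list was called in any comparison. CD79A, a B-cell receptor component in that list, read 9.28 and 9.09 at 10 h, against 8.79, 8.44 and 8.27 at 0 h. Its 10 h arrays lay above all untreated ones, at a log2 fold change of 0.69 ± 0.22 (SE) that did not pass (limma, unadjusted p = 0.00608, adjusted p = 0.768). CD3E, of the T-cell receptor complex, had 0.53 ± 0.21 (SE; limma, unadjusted p = 0.0235, adjusted p = 1.00), and its 10 h arrays also lay above all untreated ones. The part of these markers in the NFKBIA result was not tested.

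Of the 10 genes, NFKBIA alone changed past the threshold, on 1 of its 2 probe sets at 10 h against 0 h. The 21 other member probe sets had log2 fold changes between −0.39 and 0.50 at 10 h and between −0.30 and 0.41 at 2 h against 0 h. The NF-κB subunits and the other inhibitors gave no call at 2 h or 10 h. The same fit, limma on all 54613 non-control probe sets with Benjamini-Hochberg adjustment at 0.05, gave the adjusted p-values below unless another setting is named.

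NFKBIA encodes IκBα, the inhibitor that is degraded and resynthesised fastest after a stimulus. Its probe set a, whose identifier carries the suffix _s_at that the manufacturer gives to probes shared by several transcripts, read 8.81, 8.91 and 8.01 at 0 h, 9.32, 9.65 and 9.05 at 2 h, and 9.99 and 9.87 at 10 h. No array of a later time lay below any array of an earlier one, and the untreated array of replicate 3 stood lowest. Mean expression was 8.58 ± 0.49 in untreated cells (SD, n = 3), 9.34 ± 0.30 after 2 h (SD, n = 3) and 9.93 ± 0.08 after 10 h (SD, n = 2). The log2 fold change at 10 h against 0 h was 1.35 ± 0.26 (SE), a rise of 2.55-fold with a 95% interval of 1.73 to 3.77 (limma adjusted p = 0.0467). The arrays read RNA pooled over a culture, so more cells with NFKBIA mRNA and more of it per cell cannot be told apart. At 2 h against 0 h it was 0.76 ± 0.24 (SE), or 1.70-fold, with an interval on the log2 scale of 0.26 to 1.26, which did not pass after adjustment (limma, unadjusted p = 0.00535, adjusted p = 1.00). At 10 h against 2 h it was 0.59 ± 0.26 (SE), with an interval on the log2 scale of 0.03 to 1.15 (limma, unadjusted p = 0.0404, adjusted p = 1.00). The neighbouring times in the order 0 h, 2 h and 10 h were thus not separated by the adjusted test, while the outer pair was.

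The call at 10 h lay close to the threshold. It was lost on leaving out replicate 1 (1.47) or replicate 3 (1.07) of the untreated arrays, or either replicate of the 10 h arrays (1.30 without the first, 1.41 without the second). The log2 fold change was positive under each of 21 other settings and passed in 11 of them, as the plot of NFKBIA by processing setting shows. Within the 3 arrays with the lowest medians, 1 per time, NFKBIA differed by 1.08 between 10 h and 0 h, and within the other 5 by 1.46. The corresponding differences at 2 h against 0 h were 0.14 and 1.07. The other 5 held 2 arrays at 0 h, 2 at 2 h and 1 at 10 h. Among them was 0 h replicate 3, the lowest on NFKBIA at 8.01, which had the highest array median at 5.01. The part of the array medians in the NFKBIA values was not tested.

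**Figure D1:**
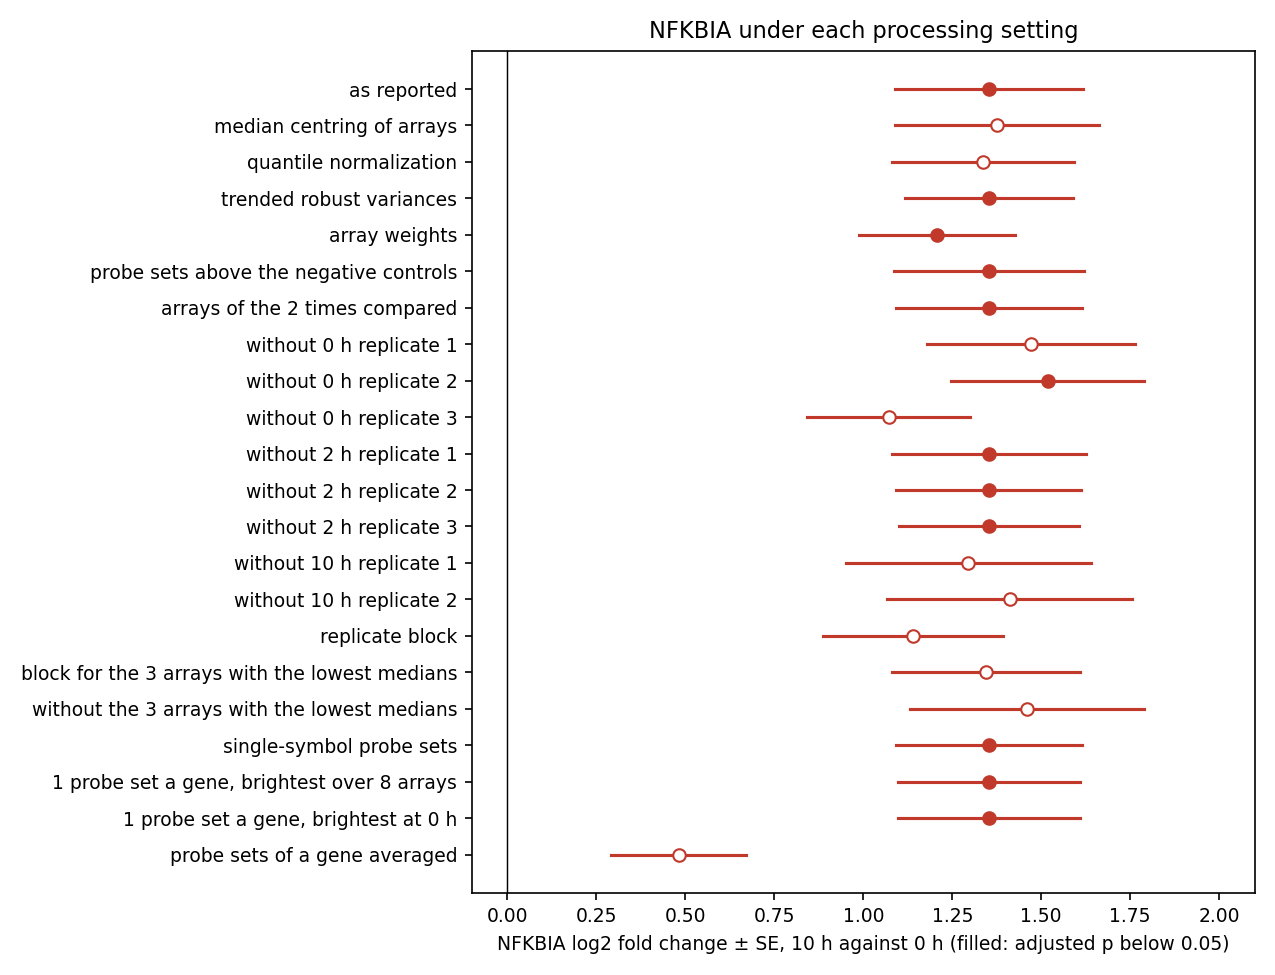
Log2 fold change of NFKBIA at 10 h against 0 h (x axis, ± SE) under the reported setting and 21 alternatives (rows); filled points have an adjusted p below 0.05. The estimates lie between 1.07 and 1.52 for every setting except the average of both NFKBIA probe sets, at 0.48, and 11 of the 21 alternatives are filled.

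NFKBIA probe set b behaved differently. It read 5.23, 5.02 and 5.73 at 0 h, 5.44, 5.39 and 4.93 at 2 h, and 4.97 and 4.90 at 10 h. Both 10 h arrays lay below all 3 untreated arrays, by a small margin. Its log2 fold change at 10 h against 0 h was −0.39 ± 0.24 (SE), with a 95% interval of −0.90 to 0.11 (limma adjusted p = 1.00). That interval does not meet the interval of 0.79 to 1.91 of probe set a for the same comparison. Its mean of 5.20 was above the highest negative control of 4.73. Which part of the NFKBIA transcript each probe set reads was not examined here, and the average of both probe sets gave 0.48 ± 0.19 (SE), which did not pass (limma adjusted p = 1.00). The rise of NFKBIA was therefore measured on a single probe set.

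The stretch of genome around the annotated NFKBIA start is shown because this is the member that moved, and because NF-κB itself is known to act there. The sequence is from RefSeq, build GRCh38.p14, chr14:35404700-35404999, minus strand, with 250 bases before and 50 after the start. Capitals mark the match to the NF-κB consensus, which lies on the strand opposite to the gene, at bases −81 to −72 from the start:
NFKBIA promoter: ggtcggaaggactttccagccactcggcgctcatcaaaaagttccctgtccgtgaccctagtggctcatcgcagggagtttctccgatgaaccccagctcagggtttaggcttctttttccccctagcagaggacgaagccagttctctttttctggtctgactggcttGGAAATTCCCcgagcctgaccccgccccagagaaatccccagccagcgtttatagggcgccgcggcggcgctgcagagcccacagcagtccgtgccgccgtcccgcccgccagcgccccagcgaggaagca

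Of the 10 members, 8 had promoter sequences in that table, 14 in all. The NF-κB consensus was found on either strand in 9 of the 14 promoters, from 7 of the 8 genes, and in 11.3% of all 35116 promoters of the same length. The motif was picked with these sequences in view, so the counts describe these windows and were not tested. Matches in each of the 7 genes are given with 10 flanking bases on each side, on the strand of the gene, to set the members that share the motif beside the values they gave. Where matches overlap 1 is shown, and NFKBIZ, NFKBIB and NFKB2 held further ones:
NFKBIA, chr14:35404811-35404840, minus strand: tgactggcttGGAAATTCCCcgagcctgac
NFKBIB, chr19:38899931-38899960, plus strand: gggcgtggtgGGGAATTTCCcgcagggcgg
NFKBIZ, chr3:101827757-101827786, plus strand: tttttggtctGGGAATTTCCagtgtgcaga
TNFAIP3, chr6:137867182-137867211, plus strand: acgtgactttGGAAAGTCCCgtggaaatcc
TNFAIP3, chr6:137867194-137867223, plus strand: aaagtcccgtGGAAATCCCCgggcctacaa
REL, chr2:60881518-60881547, plus strand: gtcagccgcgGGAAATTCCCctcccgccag
NFKB1, chr4:102501300-102501329, plus strand: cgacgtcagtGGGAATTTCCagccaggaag
NFKB2, chr10:102394490-102394519, plus strand: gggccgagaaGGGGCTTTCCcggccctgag
NFKB2, chr10:102395674-102395703, plus strand: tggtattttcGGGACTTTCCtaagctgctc

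A single arm of the palindromic glucocorticoid response element, searched as AGAACA on both strands, had no match in the 14 member promoters and was present in 14.8% of all promoters. A missing match says only that these letters are not in these windows. The promoters of NFKBIB, NFKBIZ, TNFAIP3, REL, NFKB1 and NFKB2 carried the NF-κB consensus as that of NFKBIA did, and none of these 6 genes had a called probe set. The part of the motif in the values of any of these genes was not tested.

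NFKBIB encodes IκBβ, an inhibitor that is degraded and rebuilt more slowly than IκBα. Its probe set a read 7.07, 7.09 and 6.72 at 0 h, 7.25, 7.48 and 6.96 at 2 h, and 6.92 and 7.05 at 10 h. The times overlapped, with log2 fold changes of 0.27 ± 0.19 (SE) at 2 h and 0.03 ± 0.21 (SE) at 10 h against 0 h. Probe sets b and c had 0.01 ± 0.20 and −0.02 ± 0.20 (SE) at 10 h. All 3 intervals at 10 h lay between −0.44 and 0.48, so a 2-fold change in either direction lies outside them. The identifiers of probe sets a and b carry the suffix _x_at, and whether they read NFKBIB alone was not examined here.

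NFKBIE encodes IκBε, the third classical IκB, and has a single probe set. It read 5.64, 5.69 and 5.78 at 0 h, 5.73, 5.87 and 5.73 at 2 h, and 5.80 and 5.81 at 10 h. Both 10 h arrays lay above all 3 untreated arrays, but by a log2 fold change of only 0.10 ± 0.18 (SE) (95% interval −0.29 to 0.49; limma adjusted p = 1.00).

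NFKBIZ encodes IκBζ, an inducible nuclear IκB that works as a cofactor at a subset of NF-κB target genes. Probe set a read 5.76, 5.18 and 6.20 at 0 h, 5.73, 6.05 and 5.48 at 2 h, and 5.88 and 5.93 at 10 h. The untreated arrays covered the values of both later times, and the log2 fold change at 10 h was 0.19 ± 0.27 (SE). Within the 3 arrays with the lowest medians this difference was 0.71 and within the other 5 it was −0.05. Probe set b was at the level of negative controls, with a mean of 4.71.

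TNFAIP3 encodes A20, a ubiquitin-editing enzyme that shuts off signalling upstream of the IκB kinases. Probe set a read 8.61, 8.33 and 8.73 at 0 h, 8.28, 8.36 and 8.12 at 2 h, and 8.04 and 8.47 at 10 h. Probe set b read 8.08, 7.50 and 7.63 at 0 h, 7.59, 7.47 and 7.53 at 2 h, and 7.37 and 7.74 at 10 h. The later arrays tended to the low side of the untreated ones and overlapped them on both probe sets. The log2 fold changes were −0.30 ± 0.19 and −0.21 ± 0.19 (SE) at 2 h, and −0.30 ± 0.21 and −0.18 ± 0.22 (SE) at 10 h, with probe set a first and none past the threshold (limma adjusted p = 1.00). The signs of TNFAIP3 were thus opposite to that of NFKBIA probe set a at both times, but the difference between these genes was not tested.

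**Figure D2:**
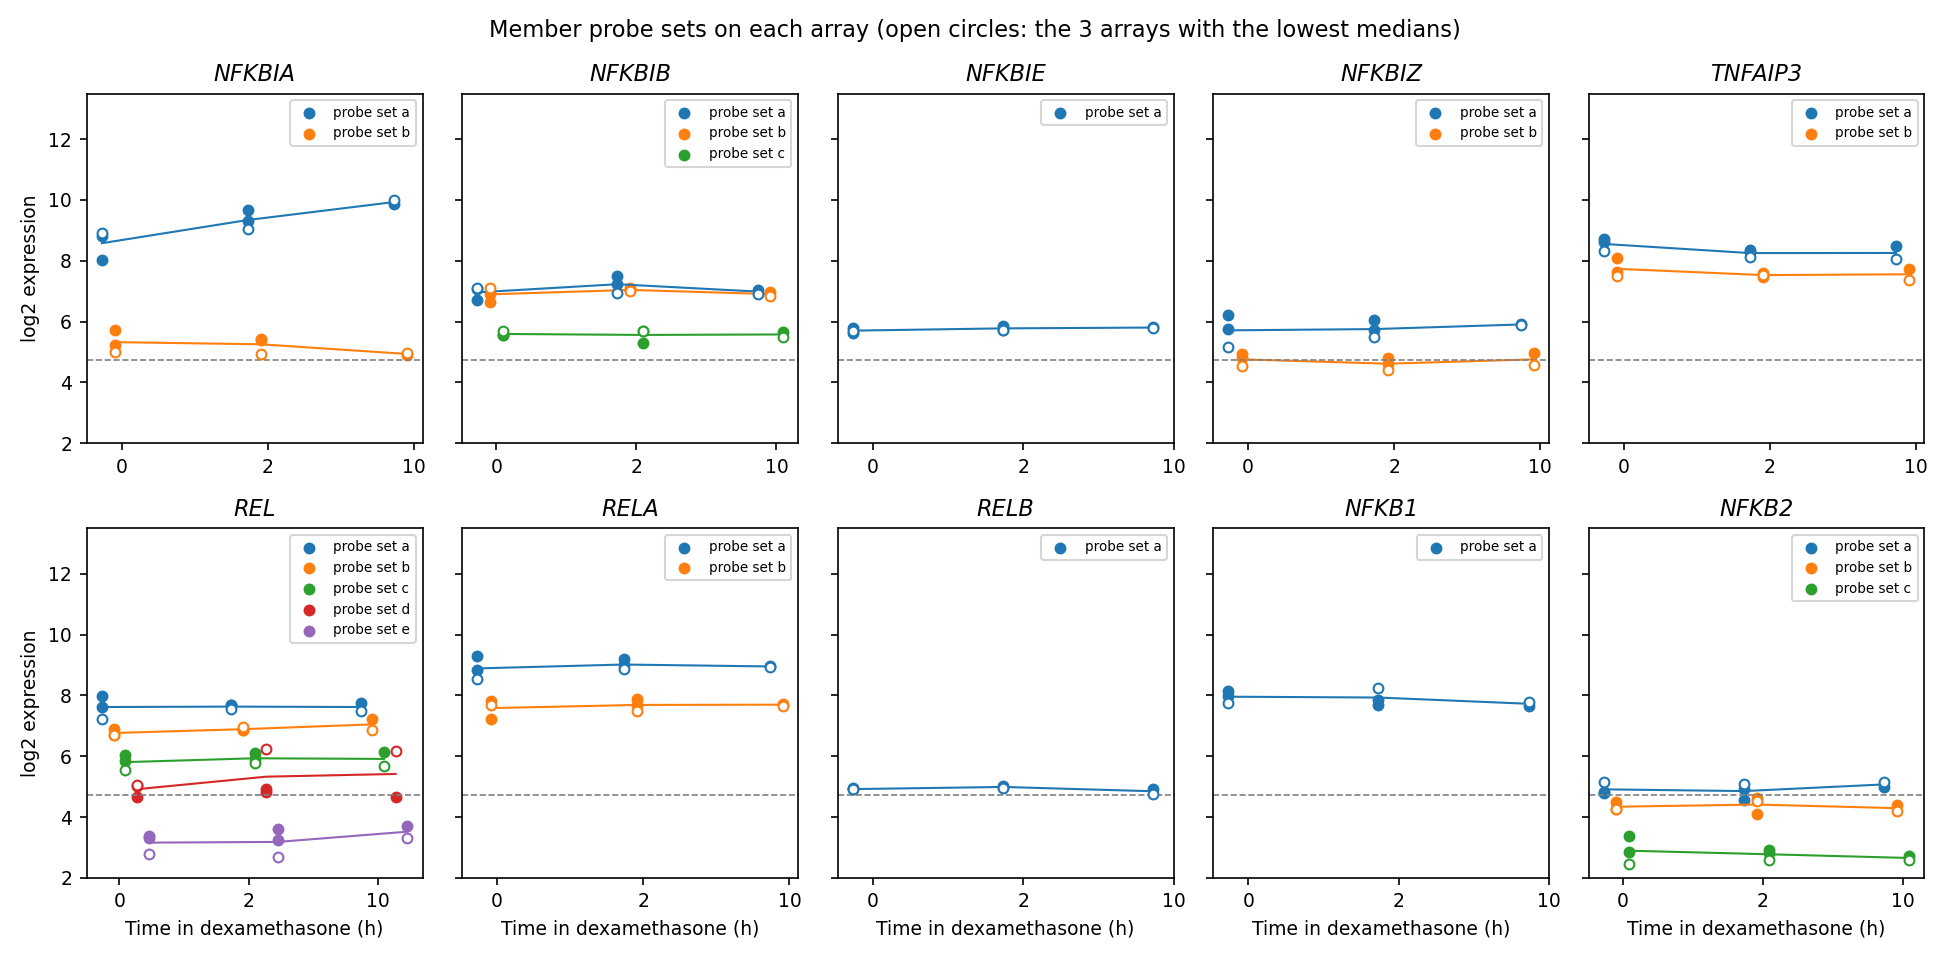
Log2 expression (y axis) of the 22 member probe sets on each of the 8 arrays by hours in dexamethasone (x axis, categories), a panel per gene; lines join the means, open circles are the 3 arrays with the lowest medians, and the dashed line is the highest negative control at 4.73. NFKBIA probe set a stands at 9.99 and 9.87 at 10 h, and REL probe set d is high on 2 of the open circles, at 6.25 and 6.18.

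RELA encodes p65, the transactivating subunit of the classical p50-p65 dimer and a known protein partner of the glucocorticoid receptor. Probe set a read 9.29, 8.52 and 8.84 at 0 h, 8.99, 9.18 and 8.87 at 2 h, and 8.93 and 8.97 at 10 h. The 10 h arrays lay inside the untreated range, and the log2 fold change was 0.06 ± 0.23 (SE) with a 95% interval of −0.42 to 0.55. Probe set b had 0.11 ± 0.22 (SE) at 10 h and 0.10 ± 0.19 (SE) at 2 h.

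REL encodes c-Rel, the transactivating subunit typical of lymphocytes, and had 5 probe sets. Probe set a read 7.99, 7.23 and 7.62 at 0 h, 7.67, 7.67 and 7.55 at 2 h, and 7.47 and 7.76 at 10 h, and its means of 7.62, 7.63 and 7.62 at the 3 times were nearly identical. Probe set b had 0.28 ± 0.20 (SE) at 10 h and probe set c 0.11 ± 0.22 (SE). Probe set d had the widest interval of all members, −0.38 to 1.39 around 0.50 at 10 h. It read 4.67, 5.05 and 5.02 at 0 h, 4.81, 4.92 and 6.25 at 2 h, and 6.18 and 4.65 at 10 h. The high readings were on 2 h replicate 3 and 10 h replicate 1, both among the 3 arrays with the lowest medians, while 0 h replicate 2 of the same set read 5.05. The difference at 10 h against 0 h was 1.14 within that set and −0.20 within the other 5 arrays. REL probe set a read 7.55 and 7.47 on those same arrays, the lowest values of their times. The part of the array medians in this pattern was not tested. Probe set e was at the level of negative controls with a mean of 3.26.

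RELB encodes the subunit of the non-canonical pathway, which pairs with p52. Its single probe set read 4.91, 4.91 and 4.94 at 0 h, 4.98, 5.03 and 4.96 at 2 h, and 4.77 and 4.92 at 10 h. The 2 h arrays lay just above the untreated ones, by a log2 fold change of 0.07 ± 0.16 (SE), and at 10 h it was −0.07 ± 0.18 (SE). With a mean of 4.93 the probe set was only slightly above the highest negative control, which limits what it can show.

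NFKB1 encodes p105, the precursor of p50. Its probe set read 8.13, 7.76 and 7.97 at 0 h, 7.85, 7.68 and 8.26 at 2 h, and 7.79 and 7.66 at 10 h. The 10 h arrays lay at the lower end of the untreated range or just under it, with a log2 fold change of −0.23 ± 0.21 (SE) and a 95% interval of −0.69 to 0.22. NFKB2 encodes p100, the precursor of p52 and an IκB-like inhibitor in its own right. Of its 3 probe sets 1 exceeded the negative controls on average, probe set a at a mean of 4.93, and it had 0.16 ± 0.21 (SE) at 10 h against 0 h. Probe sets b and c had means of 4.35 and 2.79.

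At 10 h against 0 h, 1 of 22 member probe sets was called, upwards, against 0.251% of all probe sets tested called in either direction and 0.245% upwards. It was also the 1 member with an unadjusted p below 0.05, against 2.68% of all. The members' median log2 fold change was 0.02 against −0.03 over all probe sets, with 0.00 over the 10 of inhibitors and 0.09 over the 12 of subunits. The 10 h and 0 h arrays did not overlap for 3 of 22 members, NFKBIA on both probe sets and NFKBIE, against 12.1% of all probe sets.

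In the comparison of 2 h with 0 h, 0 of 22 were called by limma against 0.00916% of all probe sets, and 1 of 22, NFKBIA probe set a, had an unadjusted p below 0.05 against 1.1% of all. The arrays did not overlap for 2 of 22 members, that probe set and RELB, against 4.13%. Between 10 h and 2 h, 0 of 22 were called by limma against 0.108% of all, and 1, again NFKBIA probe set a, had an unadjusted p below 0.05 against 2.53%. The arrays did not overlap for 3 of 22, NFKBIA probe set a, NFKBIB probe set b and RELB, against 13.4% of all. The 3 comparisons share arrays, so their values are set side by side and not combined.

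In all, 18 of the 22 probe sets exceeded the negative controls, 9 of inhibitors and 9 of subunits. In the 10 h comparison with 0 h, 20 of the 21 probe sets other than NFKBIA probe set a had a 95% interval inside a 2-fold change in either direction. The exception was REL probe set d, and the intervals together ran from −0.90 to 1.39 on the log2 scale. At 2 h, 20 of 21 lay inside, again all but that probe set. Changes smaller than 2-fold remain possible for these genes. The counts include the probe sets at the level of negative controls, NFKBIZ b, REL e and NFKB2 b and c. RELB and NFKB2 probe set a lay only slightly above that level. For all of these a narrow interval does not exclude a larger change in mRNA.

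**Figure D3:**
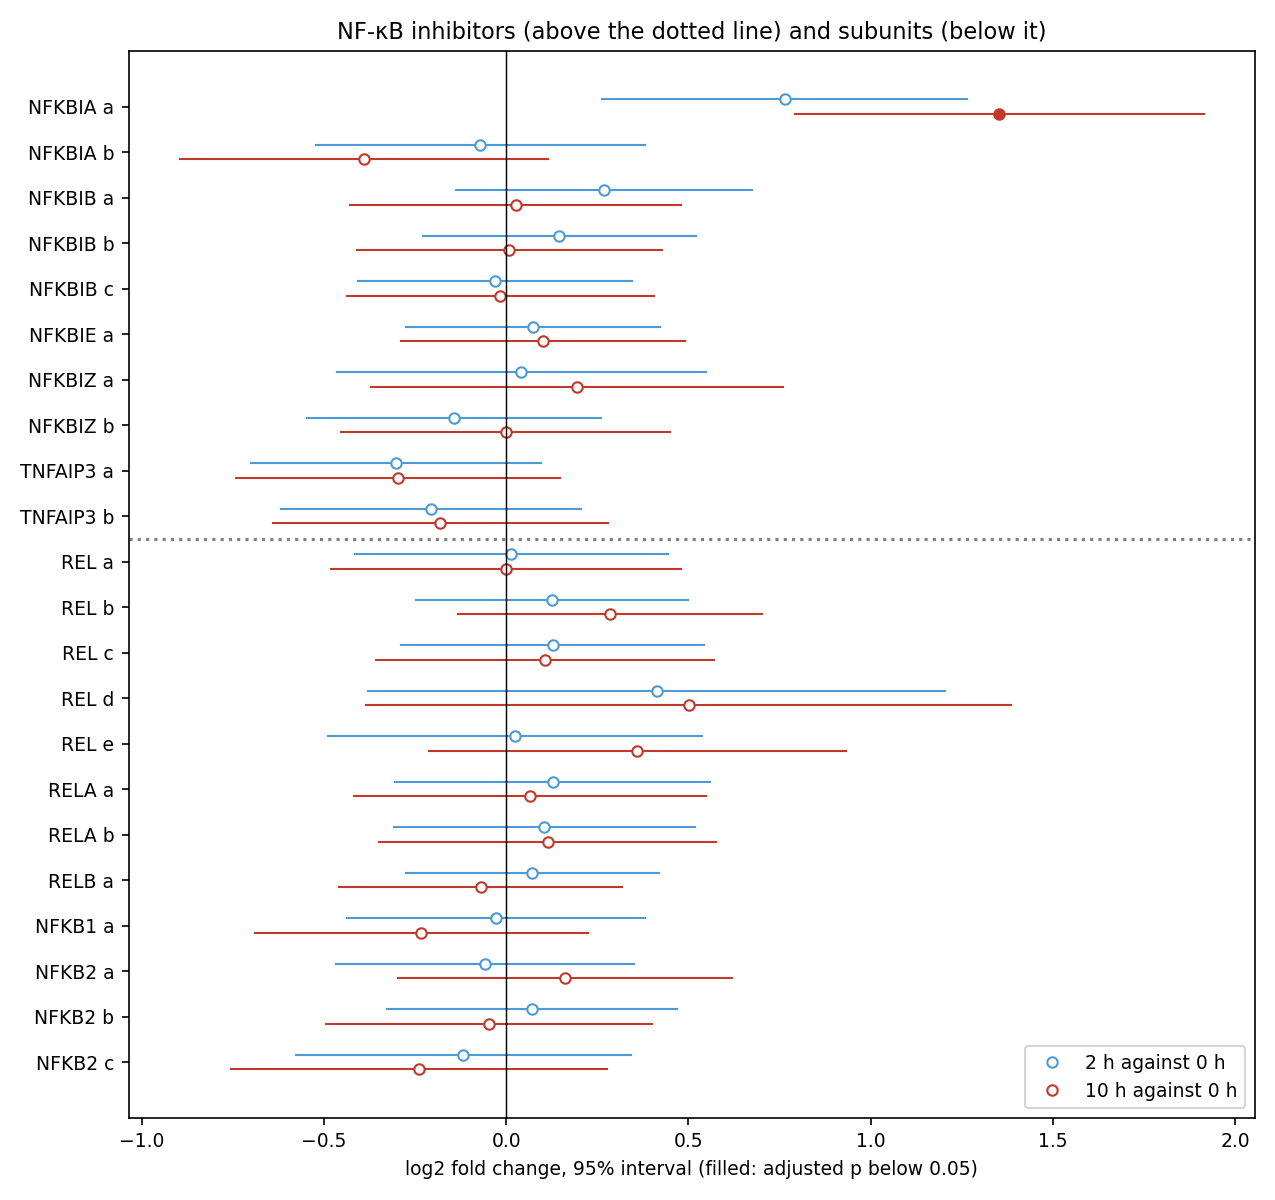
Log2 fold change (x axis) with its 95% interval for each of the 22 member probe sets (rows), at 2 h against 0 h in blue and at 10 h against 0 h in red; filled points have an adjusted p below 0.05. The single filled point is NFKBIA probe set a at 1.35, and every other interval includes 0 except that of the same probe set at 2 h.

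The rest of the pathway was taken from 7 lists of 89 distinct genes, of which 80 had a probe set with a single symbol and 64 were above the negative controls on their brightest probe set. None passed at 10 h against 0 h: in limma 0 of the 80 genes had a called probe set, against 0.379% of all 19775 genes, and the median log2 fold change of their brightest probe sets was −0.04 against −0.02 over all genes. Likewise 0 of 80 were called at 2 h against 0 h, against 0.0202% of genes, with a median of 0.02 that was also 0.02 over all genes. Between 10 h and 2 h, 1 of 80 was called, a fall of LTB, against 0.167% of genes.

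Upstream of the IκB kinases, the receptors and adaptors had a median log2 fold change of −0.15 at 10 h against 0 h over 13 measured genes, 2 of them positive and 11 negative. Over all genes of the array, 44.6% were positive in that comparison on their brightest probe set. TNFRSF1A, the main TNF receptor, had −0.22 ± 0.20 (SE), and TNFRSF1B, the second TNF receptor, −0.28 ± 0.28 (SE). TRAF1, an adaptor that is also an NF-κB target, had −0.21 ± 0.20 (SE). On the route from the T-cell receptor, PRKCQ, a protein kinase C isoform that couples the receptor to NF-κB, had −0.17 ± 0.22, the paracaspase MALT1 −0.20 ± 0.24 and its partner BCL10 0.00 ± 0.21 (SE). None of these 16 genes was called.

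Among 10 genes of kinases and of proteins that work with them the median was −0.03. MAP3K14, the kinase of the non-canonical pathway, had −0.44 ± 0.26 (SE) at a mean of 4.74, next to the negative controls, and the TAK1-binding proteins TAB3 and TAB2 had −0.30 ± 0.21 and −0.16 ± 0.21 (SE). Among 9 genes of ubiquitin ligases and of proteins that work with them the median was 0.10. BIRC2, which encodes the ligase cIAP1, had 0.31 ± 0.21 (SE), CUL1, the scaffold of the ligase that marks IκB for degradation, 0.28 ± 0.22 (SE), and RNF31, of the linear ubiquitin assembly complex, −0.20 ± 0.21 (SE). None passed.

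Other inhibitors did not follow NFKBIA past the threshold. COMMD1, which promotes the degradation of RELA, read 8.26 and 7.97 on the 10 h arrays, against 7.76, 7.90 and 7.18 on the 0 h arrays. Its 10 h arrays lay above all untreated ones, at a log2 fold change of 0.50 ± 0.23 (SE) that did not pass (limma, unadjusted p = 0.0458, adjusted p = 1.00). TAX1BP1, an adaptor of A20, had 0.28 ± 0.21 and PDLIM2, a nuclear ligase for RELA, 0.21 ± 0.23 (SE). IKBIP, whose product binds an IκB kinase, had −0.31 ± 0.22, the IκB-like gene NFKBIL1 0.18 ± 0.20 and NFKBID, which encodes the nuclear protein IκBNS, 0.08 ± 0.20 (SE).

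Of 29 measured target genes of NF-κB, 16 were above the negative controls. The median log2 fold change of the 29 at 10 h against 0 h was −0.09, with 9 positive and 20 negative values, where 44.6% of all genes were positive. That median and these signs include the genes at the level of negative controls, for which a sign says little about mRNA. The genes above that level were not counted apart. LTB, which encodes lymphotoxin beta, read 7.41 and 7.99 at 10 h, against 9.07, 8.84 and 8.91 at 2 h. LTB fell by 1.24 (log2; SE 0.21) between those times on its brightest probe set (limma adjusted p = 0.0259). Against the untreated arrays, at 8.76, 8.75 and 8.71, the log2 fold change was −1.04 ± 0.21 (SE) and missed the threshold (limma adjusted p = 0.0569), and its other probe set had −0.12 ± 0.20 (SE). No gene of the 7 lists had a lower adjusted p in that comparison. Under 9 of 21 other settings 1 listed gene was called in it, and which gene that was is not given here. The LTB call between 10 h and 2 h was lost without 0 h replicate 1 or without any 1 of the 2 h and 10 h arrays. CD83, an activation marker, had −0.38 ± 0.19, IER3, an immediate early survival gene, −0.42 ± 0.24 and the cytokine TNF −0.38 ± 0.22 (SE) at 10 h against 0 h, none past the threshold.

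**Figure D4:**
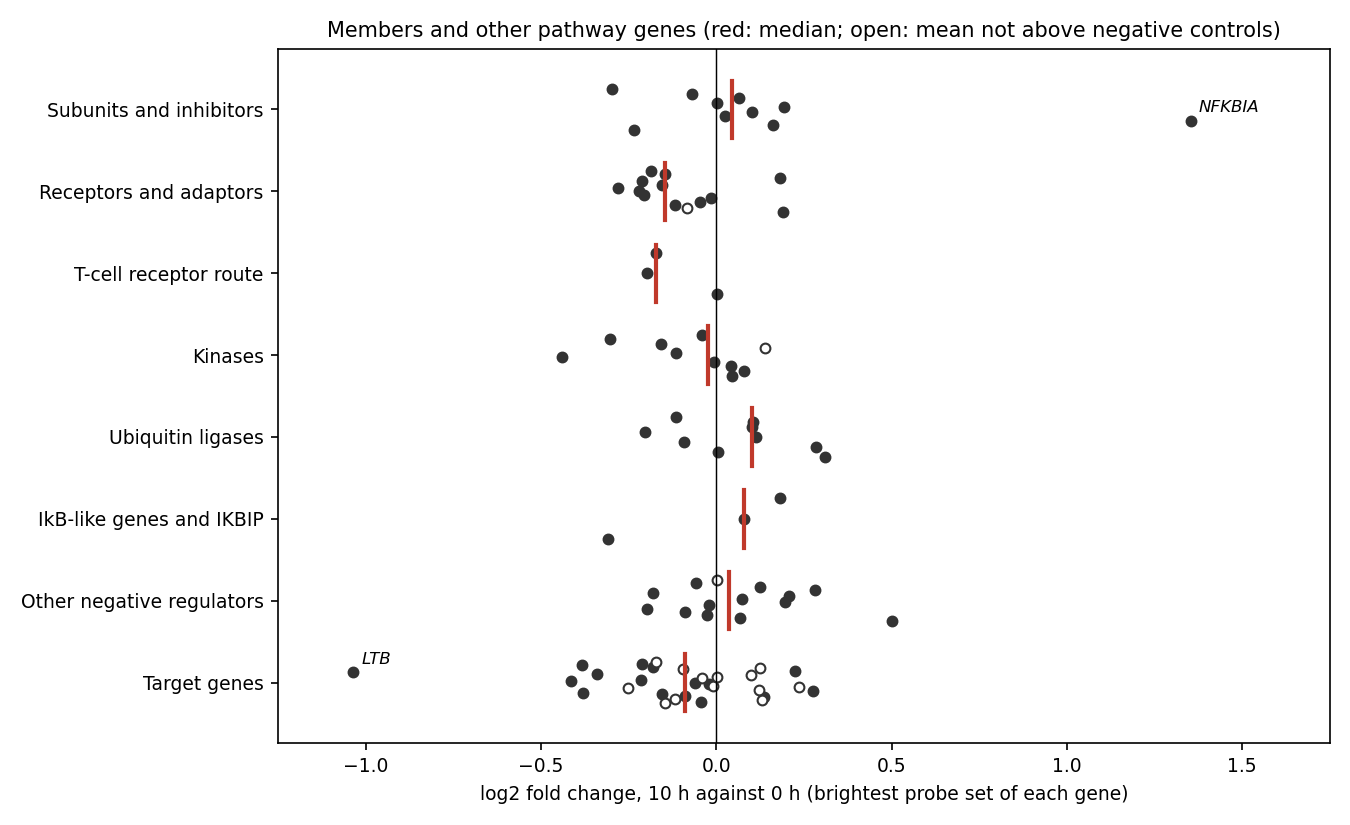
Log2 fold change at 10 h against 0 h (x axis) for the brightest probe set of each member and of each gene of the 7 pathway lists (rows); red bars are medians and open circles are genes not above the negative controls. NFKBIA at 1.35 and LTB at −1.04 are the only genes beyond 0.90 in either direction.

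The probe sets whose profile over the 8 arrays was most like NFKBIA probe set a were sought among 23676 single-symbol probe sets of other genes above the negative controls. The 5 with the highest Pearson correlation were those of HMG20B (0.985), SEPTIN1 (0.982), GPAA1 (0.975), POLR2L (0.963) and SOCS1 (0.959). These 8 points share their arrays and array-wide scale, and the list is the upper end of many correlations. SOCS1, an inhibitor of cytokine signalling through JAK kinases, read 6.08, 5.79 and 5.22 at 0 h, 7.35, 7.35 and 6.45 at 2 h, and 8.34 and 8.24 at 10 h. SOCS1 rose at 10 h against 0 h by a log2 fold change of 2.59 ± 0.29 (SE; limma adjusted p = 0.000376), while at 2 h it had 1.36 ± 0.26 (SE; limma adjusted p = 0.511). The other 4 moved little, between 0.31 and 0.52 at 10 h against 0 h, and none was called. On all 5, as on NFKBIA, 0 h replicate 3 was the lowest of the 8 arrays. Among the members themselves the correlation with NFKBIA probe set a ran from −0.64 for TNFAIP3 probe set a to 0.65 for RELA probe set b, and was −0.59 for NFKBIA probe set b.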

How the data were processed

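Each of 8 RNA samples was read on its own single-colour array. Values were deposited on the log2 scale, 1 per probe set, made by the authors with RMA per the submitters' processing notes; its version, and whether all arrays were processed together, are not given in the sources used here. Probe sets of the platform annotation with 1 gene symbol numbered 41091, with several 1801 and with none 11721; 62 controls were left out of the tests.

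The members and lists were chosen with earlier results of these data known. In R 4.3.3 a linear model of the 3 time means was fitted to all 8 arrays by limma 3.58.1 (lmFit, contrasts.fit and eBayes), which left 5 residual degrees of freedom. The pipeline was tested on simulated data with 200 changed probe sets: for 10 h against 0 h over 54613 probe sets, 49 of 50 changes of 1.4 log2 and 9 of 50 of 0.7 were called, with 13 false calls in the whole run. The simulated noise was independent between arrays and between probe sets. It lacked the array-wide differences of the real arrays, so these rates may not hold for the measured values. Named were all members, every list gene with a call, up to 3 further genes per list by smallest p at 10 h against 0 h, and the 5 probe sets most like NFKBIA. Alternatives changed scaling, variance model, array weights, filter, arrays, blocks and the probe set per gene. Sequences are RefSeq's; a narrower NF-κB motif and the full glucocorticoid palindrome were also searched and are not reported here.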

Additional observations from a re-analysis of the deposited data

How the results depend on the processing

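NFKBIA kept a positive log2 fold change at 10 h against 0 h under all 21 alternatives and passed in 11, with adjusted p from 0.00328 to 1.00. It missed the threshold with median centring (1.38), quantile normalization (1.34), a replicate block (1.14), the 3 low-median arrays as a block (1.34) or left out (1.46) and averaged probe sets (0.48), where probe set b enters the mean; the cause was not tested for the others. Leaving out each array in turn gave 1.07 to 1.52, with the call lost for 0 h replicates 1 and 3 and for either 10 h array. The count of member probe sets called at 10 h against 0 h, 1 as reported, was 0 under those same 6 settings and between 0 and 1 when leaving out an array. It was 0 under every alternative for the other comparisons.

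The count of pathway genes called at 10 h against 0 h, 0 as reported, was 1 with median centring, quantile normalization, trended robust variances, array weights, probe sets above the negative controls, the block for the 3 low-median arrays, single-symbol probe sets, and either choice of 1 probe set a gene; leaving out an array gave 0 throughout. At 10 h against 2 h it was 1 as reported, 0 with the replicate block, without the 3 low-median arrays and with averaged probe sets, and 0 to 1 when leaving out an array. No other member probe set was called in any of 1122 values under alternatives, and 115 of those changed sign.

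Over all probe sets the counts called ranged from 34 to 215 at 10 h against 0 h (137 as reported), 1 to 14 at 2 h against 0 h (5 as reported) and 1 to 92 at 10 h against 2 h (59 as reported). Same-numbered arrays of different times correlated between −0.28 and 0.28 in their deviations from the mean of their time, and differently numbered ones between −0.18 and 0.29. The deviations of the 10 h arrays mirror each other, so these values cannot decide whether the numbers mark pairs. The main fit did not take them as pairs, and NFKBIA missed the threshold with the replicate block. The arrays at 10 h number 2, and signal near the negative controls limits RELB, NFKB2 and MAP3K14.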
